A study of Mus musculus with 12 samples.

Results

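Primary mammary tumors of untreated MMTV-PyVT mice were compared with normal mammary tissue by RNA-seq. The comparison held 6 of the 12 samples of the series, 3 normal and 3 tumor, chosen by their labels alone. Each normal replicate pooled the abdominal and inguinal glands of 3 wild-type FVB females, and each tumor replicate was the thoracic gland tumor of 1 MMTV-PyVT female. All animals were 12 weeks old, and neither group received a treatment. The remaining 6 samples were tumors of mice injected with DMSO or C646 and were not used. In MMTV-PyVT mice the mouse mammary tumor virus promoter, which is active in mammary epithelium, drives the polyomavirus middle T antigen, and the level of the transgene was not analysed here. The groups thus differ at once in tissue, in the glands sampled and in how many mice a replicate held, and these cannot be told apart. Samples are called normal 1 to 3 and tumor 1 to 3, where the numbers are names and pair nothing.

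A mouse mammary gland is a tree of ducts in a pad of white fat. The ducts have an inner layer of luminal cells, some of which carry the receptors for estrogen and progesterone and some of which make milk, and an outer layer of contractile myoepithelial cells. Fibroblasts, blood and lymph vessels, nerves and immune cells lie around them, the inguinal pad contains a lymph node, and the thoracic glands lie over the muscle of the chest. Middle T antigen transforms cells by binding Src-family kinases, Shc and phosphoinositide 3-kinase, and so acts like a growth factor receptor that is always on.

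Expression was given as FPKM, the fragments of a gene divided by its length and by the number of fragments mapped in the sample, which allows comparison between genes. A total of 13031 of 23704 gene names reached 1 FPKM in at least 3 of the 6 samples and were tested with limma on log2(FPKM + 1/32). A gene was called when its Benjamini-Hochberg adjusted p was under 0.05, and errors given with log2 fold changes (tumor over normal) are standard errors, with n = 3 per group. In tumors 3758 genes (28.8% of those tested) were higher and 4128 (31.7%) were lower, 60.5% in either direction, and the median log2 fold change of all tested genes was -0.02, or 0.12 after quantile normalization. Calls of at least 2-fold numbered 2146 higher and 2992 lower, and calls of at least 32-fold numbered 108 higher and 378 lower. All 3 tumors lay above all 3 normal samples for 33.1% of tested genes and below them for 35.8%, so groups without overlap were common. Pearson's r across genes was 0.971 to 0.973 between normal samples, 0.947 to 0.962 between tumors and 0.621 to 0.720 between the groups, where genes are not independent replicates. The number of reads per sample is unknown. The glycolytic gene Gapdh, which every cell uses, was listed at 0.0875, 0 and 0.194 FPKM in the normal samples and 0, 0.0791 and 0 FPKM in the tumors, so a value at or near 0 in these files can be a failed estimate.

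White adipocyte genes were the most abundant component of the normal tissue among 20 cell type lists, and they were low in the tumors. All 22 listed members were tested, 22 were lower and none was higher, against the background of 31.7% lower and 28.8% higher, with a median log2 fold change of -6.26. Their summed level was 36960.5 to 46834 FPKM in the normal samples and 378 to 3294 FPKM in the tumors. Lipe, the hormone-sensitive lipase that releases fatty acids from stored fat, was at 451, 637 and 475 FPKM in the normal samples and at 31.6, 18.1 and 9.45 FPKM in the tumors (log2 fold change -4.87 ± 0.41, adjusted p = 8.67e-05). Fabp4, the fatty acid carrier of adipocytes and the gene with the highest mean in normal tissue, was at 13737, 17616 and 16228 FPKM there and at 1080.2, 81.7 and 82.3 FPKM in the tumors. The groups did not overlap for either gene. Adipoq, the adipocyte hormone adiponectin on chromosome 16 from 23146536 to 23158028 (mm10), was at 1207, 1517 and 1400.5 FPKM in normal tissue and at 58.2, 1.56 and 3.2 FPKM in the tumors. Tumor 1 stood above the other tumors for both Fabp4 and Adipoq. The log2 fold change of Adipoq was -7.67 ± 1.19 (adjusted p = 0.00123), -9.23 without tumor 1 and -6.64 without tumor 2. Of the 22 calls none was lost when any 1 sample was left out, but 16 moved by more than 1.5-fold without tumor 1, and the list median then became -7.36. In bulk tissue, fewer cells of a type and less RNA per cell cannot be told apart, here and for every cell type below.

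Brown adipocyte genes, which serve heat production, were also lower. All 11 members were tested and called lower (median log2 fold change -3.89), none higher. Ucp1, the mitochondrial uncoupling protein that defines these cells, was at 386, 901 and 663 FPKM in the normal samples and 33.1, 0 and 1.64 FPKM in the tumors. Tumor 1 held most of what remained. The log2 fold change of Ucp1 was -8.997 ± 2.18 (adjusted p = 0.00933), -11.39 without tumor 1 and -6.37 without tumor 2, so its size depended on which tumors entered. Cidea, a lipid droplet protein, was at 351, 710.4 and 705 FPKM in normal tissue and 80.2, 6.49 and 4.35 FPKM in the tumors.

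Skeletal muscle genes went the other way. Of 18 members 17 were tested and 17 were higher, against 28.8% of all genes, with a median log2 fold change of 6.40, and their summed level was 46.8 to 161 FPKM in normal tissue and 2559 to 7762 FPKM in the tumors. Acta1, the actin of skeletal muscle fibers, was at 26.8, 3.24 and 2.46 FPKM in the normal samples and at 1289, 1261 and 606 FPKM in the tumors. Ckm, the muscle creatine kinase, was at 16.1, 1.25 and 1.04 FPKM in normal tissue and 1416, 469 and 383 FPKM in tumors, and Myh4, a fast myosin heavy chain, at 4.52, 0.711 and 0.184 FPKM in normal tissue and 115, 62.3 and 49.2 FPKM in tumors. Normal 1 was the highest normal sample for all 3 genes, and the groups did not overlap. The log2 fold change of Acta1 was 7.37 ± 0.86 (adjusted p = 0.000335), 8.45 without normal 1 and 6.73 without normal 3. For Ckm it was 7.82 ± 1.04 (adjusted p = 0.000616), 9.08 without normal 1 and 7.12 without normal 3. Without normal 1 the list median was 7.37, and 17 members were still called higher. The gland positions differed between the groups, and the part of adjoining muscle in the values was not tested.

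**Figure D1:**
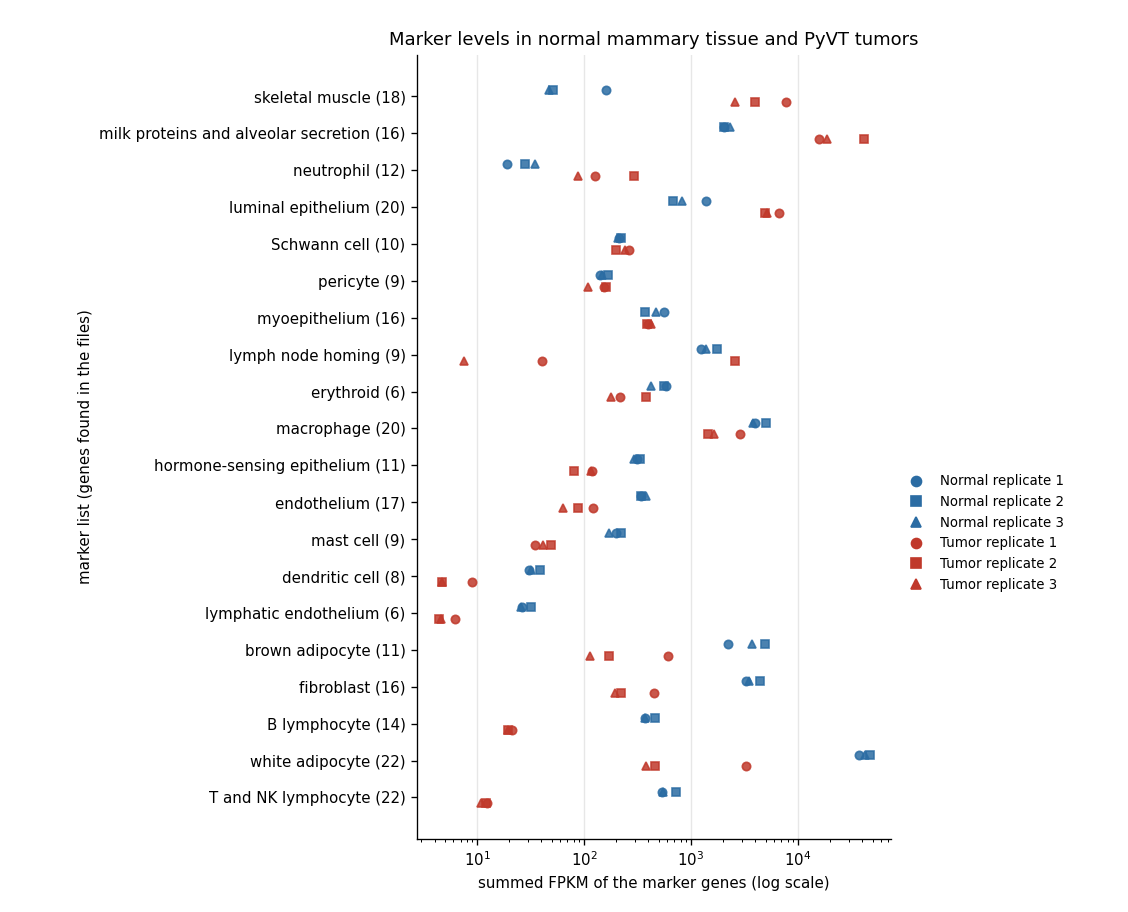
Summed FPKM (horizontal axis, log scale) of the members of 20 cell type lists (vertical axis) in each of the 3 normal samples and 3 tumors, 1 point per sample. White adipocyte, fibroblast and lymphocyte sums lie lower in the tumors, while skeletal muscle, luminal and milk protein sums lie higher.

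Luminal epithelial genes were higher in the tumors almost without exception. Of 20 members, all tested, 19 were higher and Krt19 did not pass (269.9, 118 and 150.0 FPKM in normal tissue and 259.7, 199 and 174 FPKM in the tumors, adjusted p = 0.432), with a median log2 fold change of 2.77 and summed levels of 684 to 1368 FPKM in normal tissue and 4904 to 6648 FPKM in the tumors. Krt8, a keratin of the luminal layer, was at 161, 70.0 and 88.0 FPKM in the normal samples and 678, 502 and 605 FPKM in the tumors (log2 fold change 2.57 ± 0.31, adjusted p = 0.000393). Its partner Krt18 was at 227, 119 and 134 FPKM in normal tissue and 1044, 708 and 768 FPKM in tumors. The epithelial transcription factor Ehf was at 16.8, 5.62 and 10.9 FPKM in normal tissue and 65.9, 58.4 and 66.7 FPKM in tumors (log2 fold change 2.65 ± 0.36, adjusted p = 0.000679). Elf5, the transcription factor that sets the alveolar fate of luminal progenitors, was at 31.2, 12.7 and 27.7 FPKM in normal tissue and 267, 362 and 162 FPKM in tumors (log2 fold change 3.49 ± 0.41, adjusted p = 0.000345). The 3 normal samples and the 3 tumors did not overlap for any of these 4 genes, and all 4 were detected in each of the 6 samples. Beside them, genes of the junctions between epithelial cells rose, with 19 of 22 tested members higher, none lower and a median log2 fold change of 1.58. Cdh1, the adhesion protein E-cadherin, was at 37.7, 25.5 and 28.0 FPKM in normal tissue and 267, 171 and 181 FPKM in the tumors (log2 fold change 2.75 ± 0.23, adjusted p = 7.99e-05). Cldn1, a tight junction protein, was at 3.56, 2.19 and 4.25 FPKM in normal tissue and 24.4, 33.8 and 36.5 FPKM in tumors (log2 fold change 3.26 ± 0.28, adjusted p = 9.3e-05). The desmosomal gene Dsp was called higher with a log2 fold change of 1.22 (adjusted p = 0.0292), a call lost without normal 2, normal 3, tumor 1 or tumor 3, where the log2 fold change lay between 0.83 and 1.28.

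The list of hormone-sensing luminal genes did not follow. Of its 11 members 9 were tested, 7 were lower, 1 was higher and 1 did not pass (median log2 fold change -3.09, -2.07 after quantile normalization and -1.93 with a pseudocount of 1), in samples where Krt8 and Krt18 were higher. Esr1, the estrogen receptor on chromosome 10 from 4611593 to 5005614 (mm10), was at 7.54, 6.43 and 8.65 FPKM in the normal samples and 1.66, 1.04 and 1.03 FPKM in the tumors (log2 fold change -2.60 ± 0.25, adjusted p = 0.000159). Areg, an epidermal growth factor receptor ligand made by estrogen receptor-positive cells, was at 19.5, 20.1 and 11.9 FPKM in normal tissue and 1.14, 1.18 and 2.03 FPKM in tumors (log2 fold change -3.55 ± 0.30, adjusted p = 9.49e-05). For both genes every tumor lay below the normal samples. Pgr, the progesterone receptor, was at 1.1, 0.82 and 1.06 FPKM in normal tissue and 0.0481, 0.0145 and 0.111 FPKM in the tumors and stayed under the filter, so it was not tested. Prlr, the prolactin receptor, was at 6.66, 4.83 and 8.09 FPKM in the normal samples and 4.24, 3.52 and 5.33 FPKM in the tumors and did not pass (log2 fold change -0.57, adjusted p = 0.0858). The 1 member that was higher was Prom1, a surface protein of hormone-sensing cells, at 2.51, 1.63 and 2.75 FPKM in normal tissue and 14.9, 16.8 and 25.1 FPKM in tumors (log2 fold change 3.02 ± 0.28, adjusted p = 0.00012). White adipocyte, fibroblast and endothelial lists were lower in the same samples, and the part of other cells in these values was not tested.

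Milk protein genes were high in the tumors of these mice, though not all to the same degree in each tumor. Of 16 members 15 were tested, 9 were higher, none was lower and 6 did not pass, with a median log2 fold change of 2.74 and summed levels of 2037 to 2337 FPKM in normal tissue and 15925 to 41416 FPKM in the tumors. Csn3, the casein that coats milk micelles, lies on chromosome 5 from 87925579 to 87932665 (mm10) and had the highest mean of all genes in the tumors. It was at 130.5, 122 and 231 FPKM in the normal samples and 9136, 12483 and 15346 FPKM in the tumors (log2 fold change 6.29 ± 0.32, adjusted p = 2.09e-05). Lalba, the lactose synthase subunit alpha-lactalbumin, was at 7.59, 12.2 and 53.8 FPKM in normal tissue and 2596, 2651 and 1290.4 FPKM in tumors. The log2 fold change of Lalba was 6.92 ± 0.69 (adjusted p = 0.000175) and 7.74 without normal 3, and neither gene overlapped between the groups. Csn2, beta-casein, was at 273, 18.2 and 233 FPKM in the normal samples and 580.4, 9504 and 115 FPKM in the tumors and did not pass (adjusted p = 0.155). Tumor 2 was far above all other samples and tumor 3 was within the normal range. Csn1s1 and Csn1s2a, chosen after their values were seen because they had the same order, were at 310.0, 4013 and 61.1 FPKM and 169.8, 4754 and 21.6 FPKM in tumors 1 to 3 and did not pass either (adjusted p = 0.131 and 0.229). Without tumor 2 the median of the list was 1.47 and 1 member was lower, without tumor 3 the median was 4.14, and without normal 2 it was 1.79. Wap, whey acidic protein, was at 2.62, 0 and 0.95 FPKM in normal tissue and 527, 2999 and 235 FPKM in the tumors. Its log2 fold change of 10.70 ± 1.66 (adjusted p = 0.00123) rested on normal values near 0, and ran from 8.80 without normal 2 to 12.00 without normal 1.

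**Figure D2:**
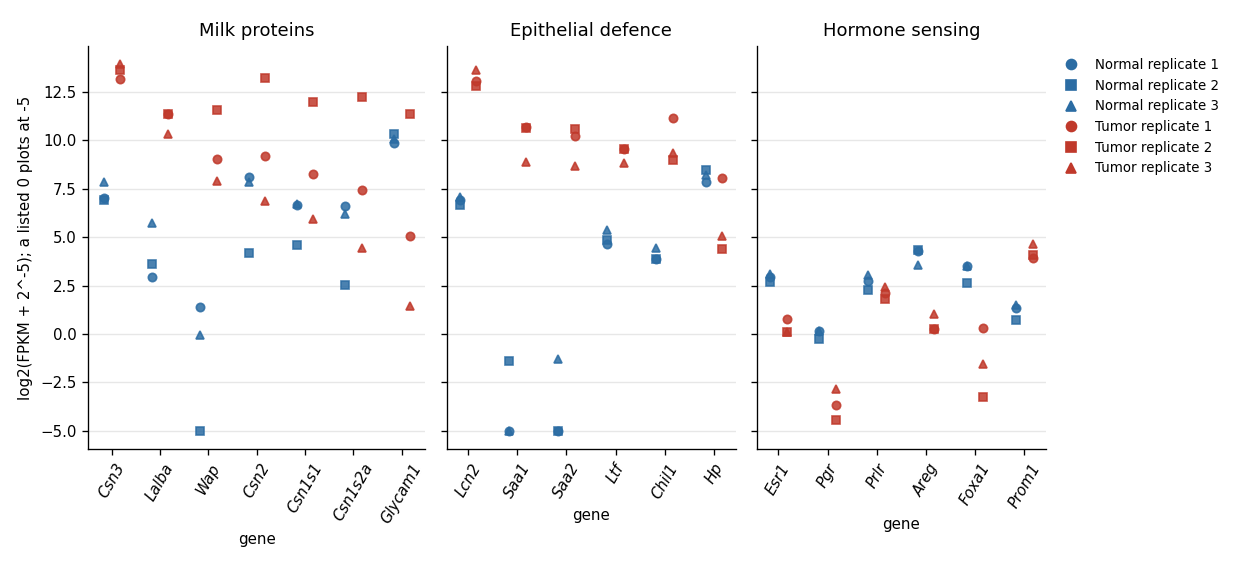
log2(FPKM + 1/32) of 7 milk protein genes, 6 epithelial defence genes and 6 hormone-sensing genes (horizontal axis) in each normal sample and each tumor, 1 point per sample. Csn3, Lcn2, Saa1 and Saa2 are far higher in all 3 tumors, Esr1 and Areg are lower in all 3, and Csn2, Csn1s1 and Csn1s2a are spread widely among the tumors.

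Myoepithelial genes moved in both directions. Of 16 tested members 3 were higher (18.75%, against 28.8% of all genes), 7 lower (43.75%, against 31.7%) and 6 did not pass. Krt14, a basal keratin, was at 49.1, 26.4 and 31.0 FPKM in normal tissue and 112, 122 and 75.4 FPKM in the tumors (log2 fold change 1.56 ± 0.28, adjusted p = 0.00231). The basal keratin Krt5 was at 63.3, 27.7 and 30.9 FPKM in normal tissue and 55.7, 79.4 and 35.7 FPKM in tumors and did not pass (adjusted p = 0.283). Oxtr, the oxytocin receptor that triggers contraction for milk ejection, was at 27.2, 15.1 and 22.5 FPKM in the normal samples and 3.66, 1.06 and 2.88 FPKM in the tumors (log2 fold change -3.21 ± 0.46, adjusted p = 0.000865). The 6 other members that were lower belong to the contractile apparatus, which myoepithelium shares with the smooth muscle of vessels, and Acta2 among them was at 150.4, 97.2 and 145 FPKM in normal tissue and 28.1, 17.5 and 14.2 FPKM in tumors (log2 fold change -2.75 ± 0.29, adjusted p = 0.000205). Trp63, the basal transcription factor p63, was called higher (log2 fold change 1.31, adjusted p = 0.0186), a call lost without tumor 1 (log2 fold change 1.12) or tumor 2 (1.21).

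Genes of fibroblasts were lower, with 15 of 16 tested members lower and 1 higher (median log2 fold change -2.79) and summed levels of 3274 to 4398 FPKM in normal tissue and 194 to 447 FPKM in the tumors. Dpt, the matrix protein dermatopontin of resting fibroblasts, was at 273, 367 and 270.0 FPKM in the normal samples and 14.5, 8.0 and 3.24 FPKM in the tumors (log2 fold change -5.37 ± 0.49, adjusted p = 0.000118). Pdgfra, the receptor that marks fibroblasts and is given in a row shared with Mir7025, was at 14.4, 12.6 and 18.5 FPKM in normal tissue and 1.39, 1.11 and 1.31 FPKM in tumors (log2 fold change -3.54 ± 0.21, adjusted p = 2.63e-05). Decorin (Dcn) was at 336, 378 and 418 FPKM in normal tissue and 28.7, 18.7 and 8.71 FPKM in the tumors. All 3 genes were lower in each tumor. Postn, a matrix protein of activated fibroblasts, was at 178, 120.2 and 172 FPKM in normal tissue and 107, 57.7 and 57.5 FPKM in tumors (log2 fold change -1.12 ± 0.28, adjusted p = 0.0111). The 1 member that rose was Tnc, the matrix protein tenascin-C, at 3.17, 1.9 and 2.64 FPKM in the normal samples and 6.07, 12.4 and 8.14 FPKM in the tumors (log2 fold change 1.74 ± 0.31, adjusted p = 0.0023).

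Vessel genes were lower as well. All 17 endothelial members were tested and 17 were lower (median log2 fold change -2.23), among them Pecam1, a junction protein of vessels, at 53.7, 52.8 and 64.5 FPKM in the normal samples and 10.3, 9.26 and 5.33 FPKM in the tumors (log2 fold change -2.83 ± 0.25, adjusted p = 0.000113). Kdr, the main receptor for vascular endothelial growth factor, was at 13.1, 12.9 and 19.8 FPKM in normal tissue and 1.43, 1.96 and 1.59 FPKM in tumors (log2 fold change -3.16 ± 0.23, adjusted p = 5.33e-05). Of 6 lymphatic members 4 passed the filter and 4 were lower, and Lyve1, the hyaluronan receptor of lymph vessels, was at 15.2, 20.9 and 12.8 FPKM in normal tissue and 0.809, 1.32 and 0.413 FPKM in the tumors, while Prox1 was not tested. Of 9 pericyte members 6 were lower, 2 did not pass, and Des was higher, a gene that muscle fibers also use. Rgs5 of pericytes was at 27.7, 25.2 and 40.0 FPKM in normal tissue and 8.56, 8.2 and 5.54 FPKM in tumors (log2 fold change -2.05 ± 0.24, adjusted p = 0.000349). Of nerve genes, 5 of 9 tested Schwann cell members were lower (55.6%, against 31.7% of all genes, but 3 without normal 3). The higher members were 2 (22.2%, against 28.8%). Summed levels of the list overlapped, at 206 to 219.6 FPKM in normal tissue and 201 to 266 FPKM in the tumors. Sox10, a transcription factor of Schwann cells that mammary epithelium also uses, was at 24.5, 11.4 and 17.7 FPKM in normal tissue and 185, 143 and 166 FPKM in tumors (log2 fold change 3.26 ± 0.27, adjusted p = 8.75e-05), against the direction of the 5 lower members.

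Lymphocyte genes were present in normal tissue and close to 0 in the tumors. Of 14 B lymphocyte members, all tested, 13 were lower, with a median log2 fold change of -7.46 (-6.59 after quantile normalization). Cd79a, a subunit of the B cell receptor, was at 82.5, 112 and 86.9 FPKM in normal tissue and 0.102, 0.177 and 0.134 FPKM in tumors (log2 fold change -9.13 ± 0.23, adjusted p = 4.57e-06). Ms4a1 (CD20) was at 24.4, 29.7 and 26.7 FPKM in normal tissue and listed at 0 in all 3 tumors. Neither gene exceeded 0.177 FPKM in any tumor, and with tumor values this close to 0 the size of a fold change depends on the 1/32 that was added. After quantile normalization the log2 fold change of Cd79a was -8.32. Blnk, a signaling adaptor, was the member that did not pass, at 15.1, 16.9 and 14.01 FPKM in normal tissue and 19.3, 18.6 and 17.2 FPKM in tumors. Of 22 T and NK lymphocyte members, all tested, 21 were lower (median log2 fold change -5.89, -6.58 without tumor 1 and -4.97 after quantile normalization), and their summed level was 536 to 727 FPKM in normal tissue and 10.9 to 12.4 FPKM in the tumors. Cd3e, a subunit of the T cell receptor complex, was at 48.9, 55.1 and 45.1 FPKM in the normal samples and 0.13, 0.153 and 0.17 FPKM in the tumors (log2 fold change -8.09 ± 0.19, adjusted p = 4.57e-06, log2 fold change -7.28 after quantile normalization). Cd8a was at 19.5, 24.6 and 19.0 FPKM in normal tissue and 0.118, 0.0598 and 0.16 FPKM in tumors and Cd4 at 31.8, 43.4 and 32.5 FPKM in normal tissue and 0.722, 0.248 and 0.428 FPKM in tumors. Gzmb, the cytotoxic protease granzyme B, did not pass, at 1.25, 1.72 and 1.5 FPKM in normal tissue and 1.46, 0.705 and 0.956 FPKM in the tumors (adjusted p = 0.194).

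Genes of lymph node organization moved with them. Of 9 listed members found, 8 were lower and Glycam1 did not pass (median log2 fold change -5.84, -6.81 without tumor 2). Ccr7, the receptor that guides lymphocytes into lymph nodes, was at 47.2, 68.8 and 47.4 FPKM in the normal samples and 0.164, 0.2 and 0.106 FPKM in the tumors (log2 fold change -8.19 ± 0.27, adjusted p = 7.73e-06, log2 fold change -7.37 after quantile normalization). Its ligand Ccl19 was at 6.74, 10.3 and 4.67 FPKM in normal tissue and listed at 0 in all 3 tumors. Glycam1 is both a ligand on lymph node vessels and a milk protein, and it was at 908, 1294 and 1053 FPKM in the normal samples and 33.3, 2570.0 and 2.71 FPKM in the tumors, with tumor 2 highest of the 6 samples and tumor 3 lowest. The normal replicates contained inguinal glands and the tumors did not, so lymph node and tissue cannot be told apart.

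Myeloid genes gave a mixed picture. Of 20 macrophage members 19 were tested, 11 were lower, 2 higher and 6 did not pass, with a median log2 fold change of -1.18. Csf1r, the growth factor receptor of macrophages, was at 47.4, 52.7 and 46.8 FPKM in the normal samples and 11.3, 9.05 and 9.82 FPKM in the tumors (log2 fold change -2.28 ± 0.14, adjusted p = 2.79e-05). Cd163, a scavenger receptor of resident macrophages, was at 8.92, 8.46 and 9.43 FPKM in normal tissue and 0.623, 0.935 and 0.809 FPKM in the tumors (log2 fold change -3.47 ± 0.22, adjusted p = 3.11e-05), and the mannose receptor Mrc1 was also lower (log2 fold change -2.97 ± 0.21, adjusted p = 4.5e-05). The 3 C1q genes, complement subunits that macrophages make, did not pass. Trem2, a lipid receptor of tumor-associated macrophages, was at 3.74, 6.65 and 3.58 FPKM in normal tissue and 28.1, 8.91 and 17.8 FPKM in the tumors (log2 fold change 1.87 ± 0.44, adjusted p = 0.00766). Arg1, arginase 1, was at 7.68, 7.83 and 15.4 FPKM in normal tissue and 21.5, 32.7 and 37.002 FPKM in tumors (log2 fold change 1.60 ± 0.32, adjusted p = 0.00396). These were the only members that rose, and for both the groups did not overlap. Marco, a receptor of lymph node and marginal zone macrophages, was at 71.4, 83.8 and 65.6 FPKM in the normal samples and 0.278, 0 and 0 FPKM in the tumors, the largest fall of the comparison among genes with at least 10 FPKM in the higher group (log2 fold change -10.09 ± 0.85, -11.20 without tumor 1).

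Dendritic cell genes were lower in 7 of 8 tested members (median log2 fold change -3.52, -4.15 without tumor 1 and -2.33 after quantile normalization), with Flt3, their growth factor receptor, at 3.56, 3.62 and 3.68 FPKM in normal tissue and 0.127, 0.0266 and 0.135 FPKM in the tumors (log2 fold change -4.99 ± 0.49, adjusted p = 0.000168, log2 fold change -3.73 after quantile normalization). Of 9 mast cell members 7 were tested, 5 were lower, and Cpa3, the mast cell protease carboxypeptidase A3, was at 21.5, 30.3 and 23.9 FPKM in normal tissue and 0.458, 0.328 and 0.146 FPKM in tumors (log2 fold change -6.31 ± 0.38, adjusted p = 2.83e-05, log2 fold change -5.55 after quantile normalization). Kit, a receptor that mast cells share with luminal progenitors, was the 1 mast cell member that rose, at 18.3, 9.4 and 16.04 FPKM in the normal samples and 29.8, 26.4 and 39.5 FPKM in the tumors (log2 fold change 1.164 ± 0.28, adjusted p = 0.00837). Only 6 of 12 neutrophil members passed the filter, with 1 higher (16.7%, against 28.8% of all genes) and 2 lower (33.3%, against 31.7%). S100a8, a subunit of the antimicrobial protein calprotectin, was at 2.49, 4.38 and 8.39 FPKM in normal tissue and 121, 275 and 76.4 FPKM in the tumors (log2 fold change 4.91 ± 0.56, adjusted p = 0.000309). Its partner S100a9 was at 2.89, 7.67 and 8.32 FPKM in normal tissue and 2.32, 15.0 and 5.91 FPKM in tumors and did not pass (adjusted p = 0.952). The granulocyte receptor Cxcr2 was at 2.21, 1.57 and 2.08 FPKM in normal tissue and 0, 0.239 and 0.225 FPKM in tumors. Erythroid genes, which mark blood left in the tissue, were lower in 1 of 4 tested rows (25%, against 31.7% of all genes). The lower count was 2 without normal 2 and 3 without tumor 2.

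Programs of the cell were examined next, and division was among the most uniform. Of 28 mitosis members, all tested, 27 were higher, none was lower and Kif23 did not pass (adjusted p = 0.0997), with a median log2 fold change of 2.39 and summed levels of 70.1 to 197 FPKM in normal tissue and 620.2 to 866 FPKM in the tumors. Mki67, the proliferation antigen Ki-67, was at 7.82, 3.47 and 2.9 FPKM in the normal samples and 16.2, 26.0 and 20.4 FPKM in the tumors (log2 fold change 2.25 ± 0.38, adjusted p = 0.00177). Ccnb1, the cyclin that drives entry into mitosis, was at 4.55, 1.66 and 1.97 FPKM in normal tissue and 13.4, 28.3 and 19.0 FPKM in tumors (log2 fold change 2.96 ± 0.43, adjusted p = 0.000884). Its kinase Cdk1 was at 7.8, 6.2 and 2.17 FPKM in normal tissue and 29.1, 39.6 and 30.2 FPKM in tumors. Ube2c, which works with the anaphase-promoting complex to end mitosis, was at 24.8, 16.6 and 6.99 FPKM in normal tissue and 125, 156 and 115 FPKM in the tumors, and Cdc20, the activator of that complex, at 14.5, 9.46 and 5.19 FPKM and 53.8, 76.3 and 54.5 FPKM. Normal 1 was the highest and normal 3 the lowest normal sample for Cdk1, Ube2c and Cdc20, and each tumor was above all of them. DNA replication genes rose in 27 of 29 tested members (median log2 fold change 1.60). Rrm2, a subunit of the enzyme that makes deoxynucleotides, was at 7.71, 7.1 and 4.11 FPKM in normal tissue and 34.8, 71.3 and 50.6 FPKM in the tumors (log2 fold change 3.04 ± 0.33, adjusted p = 0.000241). The replication helicase subunit Mcm5 was at 13.9, 13.4 and 9.93 FPKM in normal tissue and 24.5, 37.5 and 30.5 FPKM in tumors (log2 fold change 1.30 ± 0.21, adjusted p = 0.00138). The sliding clamp Pcna was at 64.1, 69.1 and 63.8 FPKM in normal tissue and 91.6, 127 and 90.8 FPKM in tumors (log2 fold change 0.64 ± 0.17, adjusted p = 0.0125), whose call was lost under quantile normalization (log2 fold change 0.44, adjusted p = 0.0699). The luminal sums given above moved in the same direction, and the part of epithelial share in these values was not tested.

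Promoters of mitosis genes are shown because members that rose together are known to share 2 elements, the CCAAT box bound by NF-Y and the cell cycle homology region (CHR). Sequences came from RefSeq on GRCm38.p6, taking the 250 bases before the gene's start, and 23 of the 28 members had an entry. A gene was counted when any of its promoters held the letters. The letters CCAAT, on either strand, were in 19 of 23 (82.6%), against 33.9% of 32841 promoters and 39.8% of the tested genes with an entry. The CHR letters TTTGAA, on either strand, were in 8 of 23 (34.8%), against 16% of all promoters and 12.8% of the tested genes with an entry. A match is a description of letters and not a bound site. Below are stretches of the promoters of the 3 members with a match that had the highest mean in the tumors, written 5′ to 3′ along the gene's strand, with the CCAAT and CHR letters of either strand in capitals. They lie at chr2:164769691-164769915 on the plus strand (Ube2c), chr4:118437344-118437406 on the minus strand (Cdc20) and chr5:30666755-30666814 on the plus strand (Cenpa).
Ube2c: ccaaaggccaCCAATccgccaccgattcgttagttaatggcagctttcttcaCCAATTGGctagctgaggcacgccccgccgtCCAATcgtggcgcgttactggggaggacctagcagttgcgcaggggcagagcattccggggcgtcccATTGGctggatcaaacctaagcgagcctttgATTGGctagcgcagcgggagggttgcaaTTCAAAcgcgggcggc
Cdc20: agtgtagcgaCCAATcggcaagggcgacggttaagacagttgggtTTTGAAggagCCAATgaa
Cenpa: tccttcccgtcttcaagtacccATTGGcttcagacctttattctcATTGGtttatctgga
In Ube2c the CHR match lies downstream of the CCAAT matches, in Cdc20 it lies between 2 CCAAT matches, and the Cenpa stretch holds CCAAT matches only. Cenpa, the centromeric histone variant, was at 21.9, 17.8 and 9.31 FPKM in normal tissue and 45.4, 54.9 and 44.2 FPKM in the tumors (log2 fold change 1.64 ± 0.31, adjusted p = 0.00286), and Ube2c had a log2 fold change of 3.20 ± 0.42 (adjusted p = 0.000609).

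Genes upstream of division were less uniform. Of 24 tested G1 cyclins, inhibitors, Rb and E2F members 8 were higher (33.3%), 6 lower (25%) and 10 did not pass. Among all genes these shares were 28.8% and 31.7%. The D-type cyclins parted. Ccnd1, in a row shared with Mir3962, was at 29.3, 25.7 and 24.8 FPKM in the normal samples and 62.9, 40.0 and 95.8 FPKM in the tumors (log2 fold change 1.23 ± 0.30, adjusted p = 0.00911). Ccnd2 was at 29.7, 33.1 and 28.3 FPKM in normal tissue and 1.85, 2.01 and 1.17 FPKM in tumors (log2 fold change -4.19 ± 0.23, adjusted p = 2.27e-05). Cyclin E1 (Ccne1) was at 3.27, 5.06 and 3.51 FPKM in normal tissue and 5.8, 13.2 and 11.8 FPKM in the tumors (log2 fold change 1.31 ± 0.34, adjusted p = 0.0123). The Cdk inhibitor Cdkn1c was lower (log2 fold change -1.74 ± 0.42, adjusted p = 0.00913). Cdkn2a, which encodes p16 and p19Arf, was at 2.21, 3.65 and 1.45 FPKM in normal tissue and 5.52, 1.6 and 14.4 FPKM in tumors and did not pass. In the Myc network 2 of 10 tested members were higher (20%) and 4 lower (40%). Myc itself was at 32.7, 28.3 and 32.5 FPKM in the normal samples and 59.2, 53.1 and 43.3 FPKM in the tumors (log2 fold change 0.73 ± 0.15, adjusted p = 0.00521). The p53 target list had 5 of 14 tested members higher (35.7%) and 4 lower (28.6%), near the shares of all genes. Its Cdk inhibitor Cdkn1a was at 16.4, 17.7 and 20.7 FPKM in normal tissue and 41.7, 26.6 and 48.9 FPKM in tumors (log2 fold change 1.05 ± 0.24, adjusted p = 0.00659), and Mdm2, the p53 ubiquitin ligase, did not pass (adjusted p = 0.607).

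The machinery that builds proteins was higher. Of 20 ribosome biogenesis members 18 were higher (median log2 fold change 0.79), among them Npm1, a nucleolar chaperone, at 263, 228 and 247 FPKM in normal tissue and 541, 701 and 471 FPKM in the tumors (log2 fold change 1.20 ± 0.19, adjusted p = 0.00133). The rRNA methyltransferase Fbl was at 64.9, 66.4 and 53.5 FPKM in normal tissue and 123, 129 and 109 FPKM in tumors (log2 fold change 0.97 ± 0.14, adjusted p = 0.00102). Cytosolic ribosomal protein genes rose in 68 of 76 tested members (median log2 fold change 1.01, 0.57 after quantile normalization), with 1 lower (the paralog Rps4l) and 7 that did not pass. The higher count ran from 48 without normal 3 to 73 without tumor 3, and was 52 without normal 1 and 53 without tumor 2. These genes summed to 61082 to 81359 FPKM in normal tissue and 117108 to 170445 FPKM in the tumors. Rpl32, among the 10 highest genes of the tumors, was at 1354, 1369 and 1131 FPKM in normal tissue and 4349.6, 3701 and 3108 FPKM in tumors (log2 fold change 1.53 ± 0.23, adjusted p = 0.00115), while Rplp1 and Rps15, also among those 10, did not pass (adjusted p = 0.0543 and 0.0513). Ribosomal protein genes have many near-identical pseudogenes, so single values are uncertain. The member with the largest rise was Rpl3l, a muscle paralog, at 0.232, 0 and 0.195 FPKM in the normal samples and 11.6, 3.89 and 5.13 FPKM in the tumors, in which the muscle list was higher too. Aminoacyl-tRNA synthetase genes rose in 18 of 20 members (median 0.99). Aars, the alanyl-tRNA synthetase, was at 43.2, 49.1 and 36.6 FPKM in normal tissue and 117, 94.4 and 64.1 FPKM in tumors (log2 fold change 1.06 ± 0.24, adjusted p = 0.00635), and Wars, the tryptophanyl-tRNA synthetase, did not pass (adjusted p = 0.835). Proteasome genes rose in 22 of 32 members and fell in none (median 0.59). For mitochondrial ribosomal proteins the call depended on single samples. Of 74 members 28 were higher (37.8%, against 28.8% of all genes) and 4 lower (5.4%, against 31.7%). The higher count was 12 without normal 1, 12 without normal 3 and 17 without tumor 1. The lower count was 1 or 2 without any 1 sample but tumor 2.

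**Figure D3:**
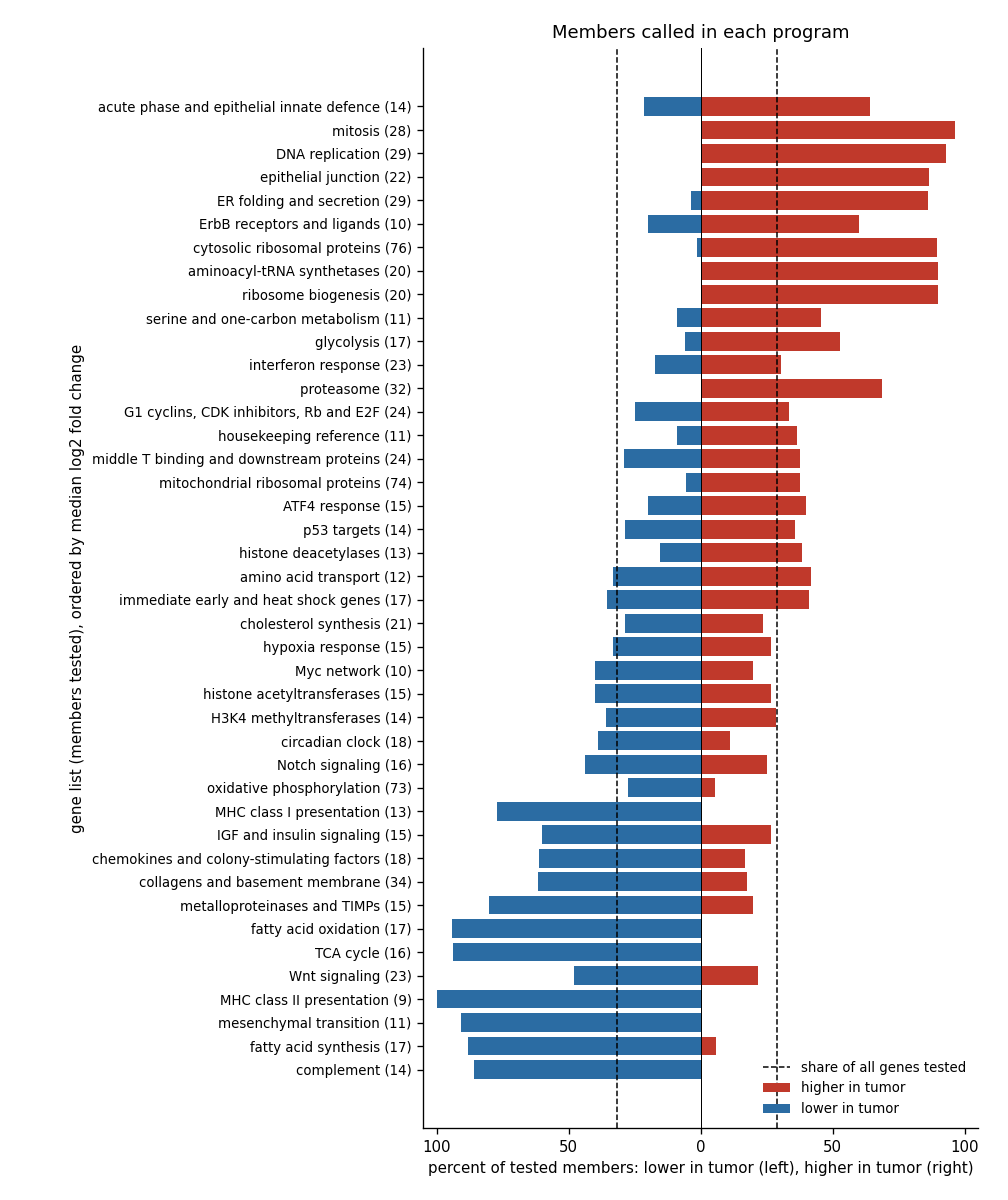
Percent of tested members called higher (to the right) and lower (to the left) in tumors for each program list, with dashed lines at the shares of all 13031 genes, 28.8% higher and 31.7% lower. Mitosis, DNA replication, ribosome and protein folding lists lie far past the higher line, and the fatty acid, TCA cycle, complement and antigen presentation lists past the lower line.

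Lipid and mitochondrial fuel metabolism was lower, in tumors in which adipocyte markers were lower too. Of 17 fatty acid synthesis members, all tested, 15 were lower, 1 higher and 1 did not pass (median log2 fold change -3.41). Fasn, the fatty acid synthase on chromosome 11 from 120805846 to 120824547 (mm10), was at 1376, 1483 and 1923 FPKM in the normal samples and 98.1, 91.7 and 40.7 FPKM in the tumors (log2 fold change -4.46 ± 0.35, adjusted p = 6.64e-05). Scd1, which makes monounsaturated fatty acids, was at 4529, 5036 and 4821 FPKM in normal tissue and 219.8, 241 and 98.6 FPKM in tumors (log2 fold change -4.79 ± 0.35, adjusted p = 5.12e-05). Both are also major genes of fat tissue, and they were lower in each tumor. Scd2, a paralog read from a row shared with Scd3 and Mir5114, was at 123, 130.3 and 158 FPKM in normal tissue and 142, 155 and 162 FPKM in tumors and did not pass (adjusted p = 0.357). Thrsp, an inducer of lipid synthesis that mammary epithelium and fat both use, was at 2772, 3588 and 3619 FPKM in normal tissue and 937, 1352 and 252 FPKM in the tumors, with a log2 fold change of -2.27 (adjusted p = 0.0119) and -1.55 without tumor 3. The 1 member that rose was Srebf1, the transcription factor that controls this pathway, at 109, 117 and 119.5 FPKM in normal tissue and 476, 202 and 271 FPKM in tumors (log2 fold change 1.37 ± 0.30, adjusted p = 0.00568) in a row shared with Mir6922.

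Fatty acid oxidation fell in 16 of 17 members (median -1.96) and the TCA cycle in 15 of 16 (median -1.97), with none higher. Acadm, the medium-chain acyl-CoA dehydrogenase, was at 296, 461 and 517 FPKM in the normal samples and 77.3, 55.6 and 42.97 FPKM in the tumors (log2 fold change -2.86 ± 0.28, adjusted p = 0.000168). Pcx, pyruvate carboxylase, which refills the TCA cycle and feeds fat synthesis, was at 368, 387 and 462 FPKM in normal tissue and 25.0, 19.9 and 14.5 FPKM in tumors (log2 fold change -4.38 ± 0.22, adjusted p = 1.75e-05). Citrate synthase (Cs) was at 232, 340.1 and 365 FPKM in normal tissue and 91.8, 92.6 and 80.9 FPKM in tumors (log2 fold change -1.80 ± 0.20, adjusted p = 0.000265). The groups did not overlap for any of these 3 genes. Oxidative phosphorylation was less plain, with 20 of 73 tested members lower (27.4%, under the 31.7% of all genes) and 4 higher, 2 higher without tumor 1 or any 1 normal sample, and the lower count was 37 without tumor 1 and 13 without normal 2, normal 3 or tumor 3. In the summed levels of white adipocyte genes the tumors held 378 to 3294 FPKM against 36960.5 to 46834 FPKM, and the part of adipocytes in these metabolic differences was not tested.

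Glycolysis genes were higher at some steps. Of 17 tested glycolysis members 9 were higher (52.9%, against 28.8% of all genes), 1 lower and 7 did not pass (median 0.67). The higher count ran from 6 without normal 1, where the median was 0.52, to 10 without tumor 1. Slc2a1, the glucose transporter of most dividing cells, was at 13.8, 18.1 and 14.9 FPKM in normal tissue and 62.5, 117 and 65.6 FPKM in the tumors (log2 fold change 2.34 ± 0.26, adjusted p = 0.000263). Aldoc, an aldolase, was at 15.6, 10.04 and 16.3 FPKM in normal tissue and 126, 129.8 and 129 FPKM in tumors (log2 fold change 3.23 ± 0.20, adjusted p = 2.91e-05). Ldha, which makes lactate, was at 627, 830.0 and 734 FPKM in normal tissue and 1692, 1538 and 1243 FPKM in tumors (log2 fold change 1.03 ± 0.21, adjusted p = 0.00443). Hk2, the hexokinase of fat and muscle, was the 1 lower member, at 25.2, 29.3 and 36.6 FPKM in normal tissue and 6.68, 7.81 and 5.61 FPKM in tumors (log2 fold change -2.17 ± 0.19, adjusted p = 0.000109). The lower count was 3 without tumor 2 and 2 without tumor 1. Skeletal muscle and luminal lists were higher in the same samples, and their part in the glycolysis values was not tested. In the hypoxia response list 4 of 15 were higher (26.7%) and 5 lower (33.3%), near the shares of all genes. Car9, a carbonic anhydrase induced by low oxygen, was at 0.509, 0.53 and 0.26 FPKM in the normal samples and 7.41, 7.16 and 16.4 FPKM in the tumors (log2 fold change 4.43 ± 0.42, adjusted p = 0.000137, log2 fold change 5.52 after quantile normalization). Vegfa, the vascular growth factor, was at 56.4, 73.6 and 73.4 FPKM in normal tissue and 12.4, 34.5 and 26.4 FPKM in tumors (log2 fold change -1.59 ± 0.36, adjusted p = 0.00689). Cholesterol synthesis had 5 of 21 members higher (23.8%), 3 when any 1 sample but tumor 1 was left out, and 6 lower (28.6%). Both shares were under those of all genes, 28.8% and 31.7%. Hmgcs1, an early enzyme of the pathway, was lower (log2 fold change -1.60 ± 0.24, adjusted p = 0.00103).

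**Figure D4:**
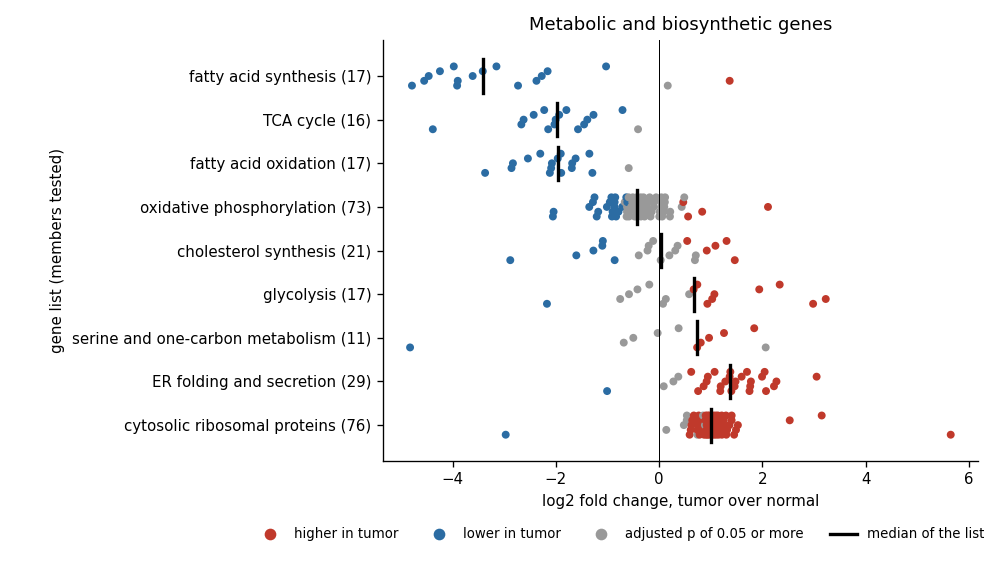
log2 fold change (tumor over normal, horizontal axis) of each tested member of 9 metabolic and biosynthetic lists, 1 point per gene, with a bar at the list median. The fatty acid synthesis median is at -3.41, the TCA cycle median at -1.97 and the cytosolic ribosomal protein median at 1.01.

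Amino acid supply changed member by member. Among 12 transport and glutamine genes 5 were higher (41.7%) and 4 lower (33.3%), against 28.8% and 31.7% of all genes. Slc7a5, which imports leucine, was at 11.5, 8.12 and 7.27 FPKM in normal tissue and 45.1, 185 and 71.2 FPKM in the tumors (log2 fold change 3.25 ± 0.48, adjusted p = 0.00101), with tumor 2 highest. Slc1a5, which imports glutamine, was at 427, 468 and 425 FPKM in normal tissue and 32.1, 13.2 and 13.3 FPKM in tumors (log2 fold change -4.63 ± 0.34, adjusted p = 5.28e-05). Glul, glutamine synthetase in a row shared with Mir8114, was at 533, 546 and 637 FPKM in normal tissue and 36.9, 25.9 and 13.9 FPKM in tumors (log2 fold change -4.59 ± 0.33, adjusted p = 5.12e-05). Serine and one-carbon genes had 5 of 11 tested members higher and 1 lower, 2 lower without normal 1. The lower member was Aldh1l1, a folate enzyme of fat and liver. Psat1 of serine synthesis was at 43.1, 37.3 and 30.0 FPKM in the normal samples and 90.7, 171 and 144 FPKM in the tumors (log2 fold change 1.84 ± 0.26, adjusted p = 0.000756). The ATF4 response, which cells use under amino acid or folding stress, had 6 of 15 members higher (40%) and 3 lower (20%). Atf4 itself was higher (log2 fold change 0.85 ± 0.15, adjusted p = 0.00195), as was its target Trib3, at 3.4, 3.96 and 3.98 FPKM in normal tissue and 20.3, 21.9 and 22.3 FPKM in tumors (log2 fold change 2.50 ± 0.14, adjusted p = 2.47e-05), while Ddit3 and Asns did not pass (adjusted p = 0.0849 and 0.287).

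Protein folding in the endoplasmic reticulum (ER) was among the uniform rises. Of 29 members, all tested, 25 were higher, 1 was lower and 3 did not pass, with a median log2 fold change of 1.38 and summed levels of 2235 to 2419.8 FPKM in normal tissue and 6326 to 7351 FPKM in the tumors. Hspa5, the ER chaperone BiP, lies on chromosome 2 from 34771970 to 34777547 (mm10) and was at 179, 168 and 219 FPKM in the normal samples and 439, 450.2 and 612 FPKM in the tumors (log2 fold change 1.40 ± 0.19, adjusted p = 0.000721). Sdf2l1, which works with BiP, was at 22.9, 25.8 and 27.2 FPKM in normal tissue and 123, 95.0 and 155 FPKM in tumors (log2 fold change 2.27 ± 0.19, adjusted p = 9.47e-05). Manf, a secreted ER protein, was at 33.9, 31.3 and 36.8 FPKM in normal tissue and 154, 102 and 157 FPKM in tumors (log2 fold change 1.99 ± 0.19, adjusted p = 0.000154). Each tumor was above each normal sample for these 3 genes. The lower member was Dnajb9, a co-chaperone of BiP, at 41.97, 42.5 and 59.8 FPKM in normal tissue and 20.1, 25.5 and 25.5 FPKM in tumors (log2 fold change -1.01 ± 0.19, adjusted p = 0.00275).

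ER chaperone promoters are shown because they are known to carry the ER stress response element (ERSE), a CCAAT box with the letters CCACG after 9 bases of any kind. In the 250 bases before the start, on either strand, it was in 7 of the 22 members with a RefSeq entry (31.8%). It was in 37 of 32841 promoters (0.113%) and in 14 of the 9555 tested genes with an entry (0.147%), members included. Each match includes a CCAAT box, so the 2 motifs overlap. The 7 members were Calr, Canx, Creld2, Dnajc3, Hsp90b1, Hspa5 and Pdia6. The stretches below, 5′ to 3′ along the gene's strand in GRCm38.p6, belong to the 3 of them with the highest mean in the tumors, with the whole match of either strand in capitals. They lie at chr8:84847065-84847124 on the minus strand (Calr), chr2:34771994-34772053 on the plus strand (Hspa5) and chr10:86705523-86705666 on the minus strand (Hsp90b1). Starts here are those of RefSeq. The GENCODE position of Hspa5 given above begins upstream of this stretch, so the annotations place the start differently.
Calr: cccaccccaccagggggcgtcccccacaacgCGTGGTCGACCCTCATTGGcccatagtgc
Hspa5: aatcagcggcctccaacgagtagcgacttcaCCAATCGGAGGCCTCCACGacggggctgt
Hsp90b1: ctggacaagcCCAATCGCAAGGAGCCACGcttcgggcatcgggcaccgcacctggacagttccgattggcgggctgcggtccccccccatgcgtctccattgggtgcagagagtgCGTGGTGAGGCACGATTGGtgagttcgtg
The Hsp90b1 stretch holds a match on each strand. Calr, the calcium-binding chaperone calreticulin, was at 268, 262 and 299.6 FPKM in normal tissue and 636, 580.3 and 679.8 FPKM in the tumors (log2 fold change 1.19 ± 0.15, adjusted p = 0.000506). Hsp90b1, the ER form of heat shock protein 90, was at 172, 151 and 185 FPKM in normal tissue and 351, 311 and 412 FPKM in tumors (log2 fold change 1.07 ± 0.17, adjusted p = 0.0012). Dnajc3, which also has the letters, did not pass the test.

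Genes of the extracellular matrix were mostly lower, as were the fibroblast markers. Of 34 collagen and basement membrane members 21 were lower, 6 higher and 7 did not pass (median log2 fold change -1.07). Col3a1, a fibrillar collagen of soft tissue, was at 727, 621 and 637 FPKM in the normal samples and 207, 99.8 and 77.9 FPKM in the tumors (log2 fold change -2.49 ± 0.34, adjusted p = 0.000714). Col1a1 was at 248, 185 and 164 FPKM in normal tissue and 197, 78.9 and 94.8 FPKM in tumors and did not pass (adjusted p = 0.0876). Col4a1 of basement membranes was at 142, 124 and 117 FPKM in normal tissue and 75.7, 53.1 and 53.4 FPKM in tumors (log2 fold change -1.09 ± 0.18, adjusted p = 0.00162). Lamb3, a laminin chain made by epithelium, went against the list, at 30.4, 23.6 and 20.1 FPKM in normal tissue and 206, 151 and 114 FPKM in the tumors (log2 fold change 2.65 ± 0.25, adjusted p = 0.000135). All 15 tested metalloproteinase and TIMP members were called, 12 lower and 3 higher. Mmp2, the gelatinase of fibroblasts, was at 91.4, 109 and 118 FPKM in normal tissue and 24.8, 14.3 and 14.6 FPKM in tumors (log2 fold change -2.61 ± 0.24, adjusted p = 0.000113). Mmp12, a macrophage elastase, was at 0.629, 0.23 and 0.319 FPKM in normal tissue and 1.4, 1.81 and 1.63 FPKM in tumors (log2 fold change 2.06 ± 0.42, adjusted p = 0.00448, log2 fold change 3.35 after quantile normalization). Mesenchymal transition genes fell in 10 of 11 tested members and rose in none (median -2.69). Vim, the filament protein vimentin, was at 465, 503 and 424 FPKM in the normal samples and 124, 78.2 and 84.2 FPKM in the tumors (log2 fold change -2.31 ± 0.20, adjusted p = 0.000105). Zeb2, a repressor of E-cadherin read from a row shared with Mir5129, was at 10.45, 15.4 and 12.7 FPKM in normal tissue and 0.673, 0.298 and 0.934 FPKM in tumors (log2 fold change -4.39 ± 0.40, adjusted p = 0.000122, log2 fold change -3.76 after quantile normalization). Fibroblast, endothelial and leukocyte lists, whose cells use these genes, were lower in the same samples, and their part was not tested.

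Acute phase and epithelial defence genes were mostly higher. Of 14 members, all tested, 9 were higher, 3 lower and 2 did not pass (median log2 fold change 3.30), and their summed level was 777 to 1003 FPKM in normal tissue and 12296 to 15898 FPKM in the tumors. Lcn2, the iron-binding lipocalin of inflamed epithelium, lies on chromosome 2 from 32384633 to 32388252 (mm10). It was at 119, 98.9 and 135 FPKM in the normal samples and 8476, 7116 and 12509 FPKM in the tumors (log2 fold change 6.29 ± 0.26, adjusted p = 1.22e-05). Saa1, the acute phase protein serum amyloid A on chromosome 7 from 46740497 to 46742980 (mm10), was at 0, 0.345 and 0 FPKM in normal tissue and 1632, 1591 and 465 FPKM in the tumors, and its near-identical neighbour Saa2 was at 0, 0 and 0.372 FPKM in normal tissue and 1174, 1516 and 401 FPKM in tumors. Reads may have been split between the 2 genes, and with normal values at or near 0 their fold changes have no firm size: that of Saa1 was 13.86 and ran from 13.26 without normal 1 to 15.06 without normal 2. Pigr, which carries antibodies across epithelium, was at 0.51, 0.477 and 0.977 FPKM in normal tissue and 9.78, 15.7 and 16.2 FPKM in the tumors (log2 fold change 4.38 ± 0.34, adjusted p = 6.47e-05, log2 fold change 5.37 after quantile normalization). Ltf, the milk defence protein lactoferrin from the milk list, was at 24.7, 28.6 and 41.6 FPKM in normal tissue and 749, 754 and 453 FPKM in tumors (log2 fold change 4.36 ± 0.27, adjusted p = 3.07e-05) and was named after its values were seen. Against this trend, Orm1 and Orm2, orosomucoids of plasma that fat also makes, were lower. Hp, haptoglobin, was at 225, 349 and 298 FPKM in the normal samples and 267, 21.1 and 33.2 FPKM in the tumors, where tumor 1 lay within the normal range. Its call (log2 fold change -2.32, adjusted p = 0.0487) was lost without any 1 of the samples but tumor 1, with values from -1.60 without tumor 2 to -2.49 without normal 1, and was -3.43 without tumor 1.

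Interferon response genes were called higher at about the rate of all genes, in 7 of 23 members (30.4% against 28.8%), with 4 lower and 12 not called (median 0.66), and their levels differed between tumors. Isg15, a ubiquitin-like protein induced by interferon, was at 12.7, 9.85 and 7.03 FPKM in the normal samples and 24.4, 56.5 and 100.1 FPKM in the tumors (log2 fold change 2.43 ± 0.49, adjusted p = 0.00407). Irf7, a transcription factor of the response, was at 23.2, 22.6 and 17.9 FPKM in normal tissue and 48.2, 51.0 and 177 FPKM in tumors, with a log2 fold change of 1.84 (adjusted p = 0.0123) and 1.23 without tumor 3. Tumor 3 was the highest tumor for both. Without tumor 1 there were 13 higher members, and the lower count was 2 without normal 1 and 1 without normal 2 or normal 3. The core of the interferon-stimulated response element, GAAA repeated after 2 bases of any kind, was searched on both strands. It was in 8 of 16 members with an entry (50%), against 2.98% of all promoters and 3.08% of the tested genes with an entry.

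Antigen presentation was lower. Of 13 MHC class I members 10 were lower and 3 did not pass (median -1.05), and all 9 tested class II members were lower (median -2.67). B2m, the shared light chain of class I, was at 1869, 2455 and 2154 FPKM in normal tissue and 343, 268 and 558 FPKM in the tumors (log2 fold change -2.53 ± 0.29, adjusted p = 0.000333). The class I heavy chain H2-K1 was at 1235, 1631 and 1381 FPKM in normal tissue and 763, 513 and 801 FPKM in tumors (log2 fold change -1.05 ± 0.24, adjusted p = 0.007). H2 genes are near-identical and their single values uncertain. H2-Aa of class II was at 256, 379 and 237 FPKM in normal tissue and 78.3, 21.2 and 32.9 FPKM in tumors (log2 fold change -2.91 ± 0.45, adjusted p = 0.00128), highest in tumor 1 among the tumors. Ciita, the activator of class II genes, was at 8.1, 8.89 and 7.75 FPKM in the normal samples and 3.55, 2.58 and 3.23 FPKM in the tumors (log2 fold change -1.40 ± 0.18, adjusted p = 0.000543), or -2.81 on the log2 scale when only the highest of its repeated rows was used. Class II is carried by B cells, macrophages and dendritic cells, whose lists were lower too, and their part was not tested.

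Complement genes fell in 12 of 14 tested members and rose in none (median -3.42, -2.76 after quantile normalization and -1.89 with a pseudocount of 1). C3, the central component, was at 390.4, 413 and 474 FPKM in normal tissue and 34.9, 20.0 and 11.4 FPKM in the tumors (log2 fold change -4.41 ± 0.37, adjusted p = 8.79e-05). Among 18 tested chemokine and colony-stimulating factor genes 11 were lower and 3 higher. Cxcl12, which stromal cells make to retain leukocytes, was at 97.4, 112 and 117 FPKM in the normal samples and 12.9, 6.94 and 10.1 FPKM in the tumors (log2 fold change -3.48 ± 0.23, adjusted p = 3.7e-05). Csf1, the ligand of Csf1r, was at 14.2, 16.1 and 14.3 FPKM in normal tissue and 10.6, 8.44 and 8.88 FPKM in tumors (log2 fold change -0.68 ± 0.15, adjusted p = 0.00585), so ligand and receptor were both lower. Csf3, which mobilizes neutrophils, was at 0.63, 0.315 and 0 FPKM in normal tissue and 1.21, 2.28 and 2.5 FPKM in tumors and its higher call (log2 fold change 3.33, adjusted p = 0.0305) was lost without tumor 2 (3.20) or tumor 3 (3.14), and its size moved to 4.22 without normal 1 and 2.02 without normal 3.

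Signaling genes did not move as blocks. Of 24 proteins that bind middle T or act after it, all tested, 9 were higher (37.5%), 7 lower (29.2%) and 8 did not pass. Among all genes 28.8% were higher and 31.7% lower. Src, the first kinase that middle T engages, was at 14.3, 10.2 and 12.4 FPKM in normal tissue and 27.5, 34.0 and 32.8 FPKM in the tumors (log2 fold change 1.36 ± 0.17, adjusted p = 0.000457). Pik3r1, the regulatory subunit of phosphoinositide 3-kinase, was at 36.9, 29.5 and 44.0 FPKM in normal tissue and 84.3, 51.5 and 66.4 FPKM in tumors (log2 fold change 0.86 ± 0.22, adjusted p = 0.0126). Hras, named after its values were seen as the list's largest rise, was at 30.3, 33.0 and 28.4 FPKM in the normal samples and 287, 570.3 and 696 FPKM in the tumors (log2 fold change 3.99 ± 0.31, adjusted p = 6.86e-05). ErbB receptors and ligands had 6 of 10 tested members higher (60%) and 2 lower (20%). The higher count was 4 without normal 1 or normal 2, 5 without normal 3 or tumor 3, and 6 without tumor 1 or tumor 2. Erbb2 (HER2) was at 8.7, 5.25 and 5.7 FPKM in normal tissue and 17.2, 11.6 and 16.5 FPKM in tumors (log2 fold change 1.22 ± 0.25, adjusted p = 0.00418) and Erbb3, in a row shared with Mir6917, at 9.44, 3.66 and 5.27 FPKM in normal tissue and 17.1, 17.2 and 17.4 FPKM in tumors (log2 fold change 1.60 ± 0.32, adjusted p = 0.00389). Egfr was at 5.17, 4.67 and 6.53 FPKM in normal tissue and 5.78, 5.52 and 7.11 FPKM in tumors and did not pass (adjusted p = 0.464). Among the ligands, Areg was lower with the values given above.

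In the IGF and insulin list 9 of 15 members were lower (60%, against 31.7% of all genes) and 4 higher (26.7%, against 28.8%). Igf1, the growth factor that stroma and fat make, was at 35.5, 36.4 and 33.8 FPKM in normal tissue and 1.91, 1.33 and 0.863 FPKM in the tumors (log2 fold change -4.73 ± 0.28, adjusted p = 2.65e-05). Its receptor Igf1r was at 2.22, 2.21 and 2.03 FPKM in normal tissue and 0.69, 0.653 and 0.85 FPKM in tumors (log2 fold change -1.53 ± 0.25, adjusted p = 0.00171), a call lost under quantile normalization (log2 fold change -0.67, adjusted p = 0.0535). Igfbp5, a binding protein of epithelium, was at 115, 109 and 146 FPKM in normal tissue and 1306, 614 and 893 FPKM in tumors (log2 fold change 2.87 ± 0.28, adjusted p = 0.000168), the opposite direction to its ligand. Wnt signaling had 11 of 23 tested members lower (47.8%, against 31.7% of all genes) and 5 higher (21.7%, against 28.8%). Wnt11, a ligand, was lower (log2 fold change -2.57 ± 0.45, adjusted p = 0.00216, log2 fold change -1.73 after quantile normalization). Axin2, a target that reads out pathway activity, was at 9.2, 8.83 and 7.65 FPKM in the normal samples and 0.662, 7.4 and 0.132 FPKM in the tumors, with tumor 2 near the normal samples and no call (adjusted p = 0.0536). Notch signaling had 7 of 16 tested members lower (43.8%, against 31.7% of all genes) and 4 higher (25%, against 28.8%), 2 without normal 2. Jag1, a ligand, was at 5.02, 4.84 and 5.74 FPKM in normal tissue and 1.29, 1.39 and 1.29 FPKM in tumors (log2 fold change -1.95 ± 0.19, adjusted p = 0.000154). Hey1, a target of Notch, was at 5.35, 7.17 and 6.4 FPKM in normal tissue and 135, 51.5 and 126 FPKM in the tumors (log2 fold change 3.93 ± 0.36, adjusted p = 0.000124).

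Genes of 2 lists of chromatin enzymes, the acetyltransferases and the H3K4 methyltransferases, were called at rates near those of all genes, 28.8% higher and 31.7% lower. Histone acetyltransferases, which place acetyl marks on active chromatin, had 4 of 15 members higher (26.7%) and 6 lower (40%, median -0.20). Ep300, which encodes p300, was at 8.65, 8.57 and 7.59 FPKM in the normal samples and 3.06, 3.74 and 3.19 FPKM in the tumors (log2 fold change -1.31 ± 0.16, adjusted p = 0.000466). Its paralog Crebbp was at 4.39, 3.11 and 3.5 FPKM in normal tissue and 3.9, 2.84 and 3.89 FPKM in tumors and did not pass (adjusted p = 0.86). Hat1, which acetylates newly made histone H4, was higher (log2 fold change 0.99 ± 0.15, adjusted p = 0.00107), and Kat2b was lower (log2 fold change -1.02 ± 0.18, adjusted p = 0.00201). Histone deacetylases had 5 of 13 tested members higher (38.5%), 3 without normal 2, and 2 lower (15.4%). Hdac1 was at 29.4, 30.0 and 29.1 FPKM in normal tissue and 15.2, 24.0 and 23.7 FPKM in tumors and Hdac2 at 38.4, 41.5 and 39.2 FPKM in normal tissue and 38.1, 42.8 and 39.5 FPKM in tumors, and neither passed. The H3K4 methyltransferase list had 4 of 14 members higher (28.6%) and 5 lower (35.7%), with a median log2 fold change of -0.23 that turned positive under quantile normalization. Kmt2c, which methylates enhancers, was at 9.68, 9.89 and 10.9 FPKM in normal tissue and 6.45, 6.13 and 5.69 FPKM in the tumors (log2 fold change -0.74 ± 0.14, adjusted p = 0.00323).

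Circadian genes were lower in 7 of 18 tested members (38.9%, against 31.7% of all genes) and higher in 2, with a median log2 fold change of -0.37 that was -0.03 after quantile normalization. Nr1d1, the clock repressor Rev-erb alpha, was at 54.5, 56.4 and 51.8 FPKM in the normal samples and 11.4, 4.67 and 6.45 FPKM in the tumors (log2 fold change -2.95 ± 0.30, adjusted p = 0.000191), while the core activator Arntl did not pass (adjusted p = 0.483). Immediate early and heat shock genes, which respond within minutes to growth signals and to handling of tissue, moved both ways. Of 17 tested members 7 were higher (41.2%, against 28.8% of all genes) and 6 lower (35.3%). Fos was at 6.95, 6.13 and 4.55 FPKM in normal tissue and 15.5, 19.8 and 25.2 FPKM in tumors (log2 fold change 1.77 ± 0.24, adjusted p = 0.000625), Egr1 did not pass (adjusted p = 0.785), and Dusp1, a phosphatase of the same response, was lower (log2 fold change -1.39 ± 0.26, adjusted p = 0.00297). Of 11 tested housekeeping genes 4 were higher, 1 was lower and 6 did not pass, and the count lower was 2 without tumor 2. Tbp was at 11.1, 10.9 and 12.7 FPKM in normal tissue and 8.44, 10.4 and 10.3 FPKM in the tumors and Hprt at 76.9, 76.6 and 72.5 FPKM in normal tissue and 46.4, 75.2 and 49.3 FPKM in tumors, and neither passed.

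The largest changes cut across the lists. The 12 largest rises, among genes that reached a mean of 10 FPKM in the tumors, were Saa1, Saa2, 2310057J18Rik, Wap, Scgb2b27, Scgb1b27, Scgb2b26, Ankrd22, Scrg1, Sln, Tnnc2 and Ckm. Of these, 2310057J18Rik, Scgb1b27, Scgb2b26, Ankrd22 and Sln were listed at 0 in all 3 normal samples, so no fold change is given. The secretoglobin Scgb2b27 was at 0.938, 0 and 0.506 FPKM in the normal samples and 749.5, 87.5 and 769.7 FPKM in the tumors, Scgb1b27 at 88.0, 5.25 and 137 FPKM and Scgb2b26 at 34.3, 2.31 and 35.8 FPKM in the tumors. All 3 secretoglobins, secreted proteins of glands encoded by a cluster of near-identical genes, were lowest in tumor 2. Ankrd22 was at 12.1, 12.8 and 14.7 FPKM in the tumors. Sln, the muscle protein sarcolipin, was at 6.44, 41.2 and 5.64 FPKM and Tnnc2, a troponin of fast muscle, at 13.8, 1.37 and 0.314 FPKM in normal tissue and 1279, 511 and 307 FPKM in the tumors, so that 3 of the 12 are muscle genes. The 12 largest falls included Marco, Ms4a1, 4930524B15Rik, Gm2083, Cd8b1, Cd79a, Ucp1, Mir1950, Fcer2a and Gm21541. Mir1950, on chromosome 19 from 34965396 to 34965469 (mm10), is a small RNA gene, and its values from poly-A RNA are uncertain. Fcer2a (CD23), a B cell receptor for IgE, was at 28.7, 37.9 and 33.2 FPKM in normal tissue and 0.0671, 0 and 0.0864 FPKM in tumors. Cd8b1, the other chain of CD8, was at 27.2, 44.1 and 30.1 FPKM in normal tissue and 0.109, 0 and 0 FPKM in tumors. Ms4a1, Cd8b1, Cd79a and Fcer2a among them are lymphocyte genes.

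The most abundant genes differed in part. In the tumors the 10 highest means belonged to Csn3, Trf, Lcn2, Rpl41, Rplp1, Wfdc18, Rps15, Eef1a1, Rpl32 and Fth1, of which 6 were higher and Rplp1, Rps15, Eef1a1 and Fth1 did not pass. Trf, the iron carrier transferrin that milk also contains, was at 747, 582 and 736 FPKM in normal tissue and 13188, 9731 and 9258 FPKM in the tumors (log2 fold change 3.95 ± 0.25, adjusted p = 3.41e-05). Wfdc18, a small secreted protein of mammary epithelium, was at 399.5, 113 and 172 FPKM in normal tissue and 5436, 5231 and 4445 FPKM in tumors (log2 fold change 4.66 ± 0.44, adjusted p = 0.000132). Thus 4 of the 10 encode secreted proteins, and Trf and Lcn2 bind iron or its carriers. In normal tissue the 10 highest were Fabp4, Cfd, Car3, Scd1, Thrsp, Eef1a1, Rpl41, Rplp1, Rps27 and Apoe, of which 6 were lower, Rpl41 was higher, and Eef1a1, Rplp1 and Rps27 did not pass. The lower call of Apoe was lost without normal 2, tumor 2 or tumor 3. Cfd, the complement protease adipsin secreted by fat cells, was at 8523, 10408 and 8868 FPKM in the normal samples and 1164, 16.7 and 42.3 FPKM in the tumors, and Car3, a carbonic anhydrase of fat and muscle, at 5503, 6412 and 6265 FPKM in normal tissue and 219.5, 90.5 and 36.3 FPKM in tumors. The top genes of both groups were the elongation factor Eef1a1, which did not pass (adjusted p = 0.246), and the ribosomal genes Rpl41 and Rplp1.

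More genes differed between tumors than between normal samples. Between 445 and 598 tested genes differed by at least 2-fold in a pair of normal samples, against 1254 to 1748 in a pair of tumors. The normal samples pooled 3 mice each and the tumors came from 1 mouse each, so pooling and tissue cannot be told apart in this spread. The range of a list's mean log2 level was wider among tumors in 48 of 62 lists and wider among normal samples in 14, such as skeletal muscle (2.70 among normal samples, 1.47 among tumors), mitosis (1.43 and 0.65) and luminal epithelium (1.00 and 0.16). By the range of the mean log2 level of a list among the 3 tumors, white adipocyte genes differed most (3.44), followed by milk proteins (3.07), brown adipocyte (2.54), mast cell (2.28), neutrophil (2.25) and interferon response genes (2.11). Tumor 1 was the highest tumor for adipocyte, brown adipocyte, MHC class II and muscle genes. Tumor 2 was the highest for milk protein, mast cell and neutrophil genes, and tumor 3 for interferon response genes. Of the 8 genes with the largest SD among tumors, Mir1982, Snora70 and Snora64 are small RNA genes with values at 0 in some samples, and Glycam1, Csn1s2a, Ucp1 and Retn follow the milk and adipocyte lists. Retn, the fat hormone resistin, was at 79.7, 0.364 and 3.07 FPKM in tumors 1 to 3, in the order of Adipoq.

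**Figure D5:**
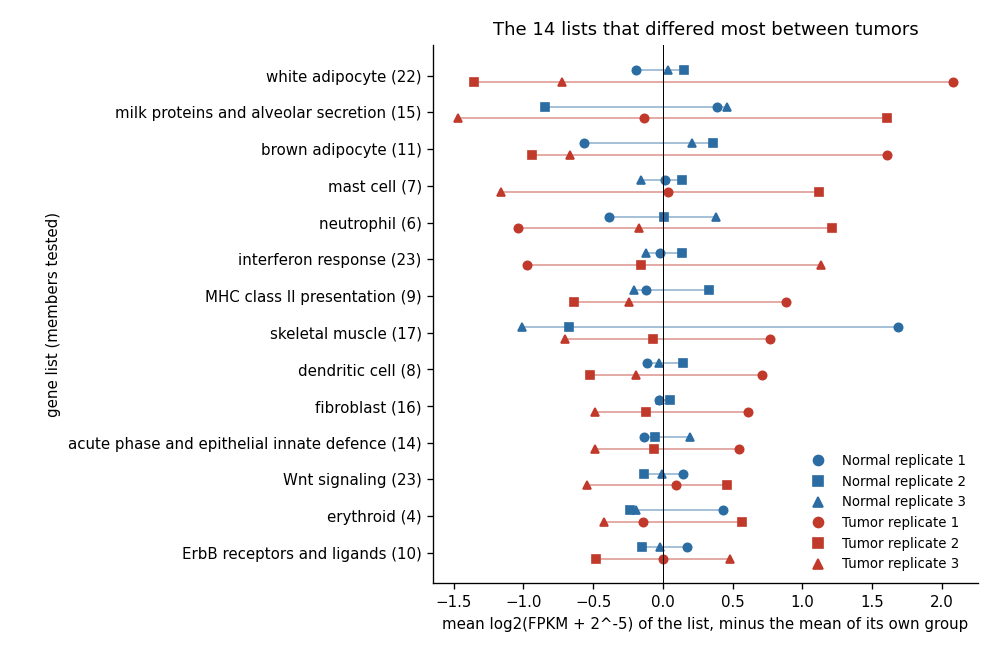
Mean log2(FPKM + 1/32) of the members of the 14 lists that varied most among tumors, minus the mean of the sample's own group (horizontal axis, log2 units), 1 point per sample. Tumor 1 is to the right for adipocyte lists, tumor 2 for milk proteins and tumor 3 for interferon response genes. Lists were taken by their range among tumors, so the narrower spread of normal samples here follows in part from that choice.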

How the data were processed

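Poly-A RNA of 3 normal mammary samples and 3 untreated tumors was sequenced with a kit that does not mark strand, so overlapping and antisense genes cannot be told apart. The authors deposited FPKM values per gene, made with TopHat2 2.1.1 and Cufflinks 2.2.1 on mm10 according to the submitters' processing notes. The annotation is not given in the sources used here. FPKM files hold no read counts, so the depth of each sample and the counting error are unknown. No whole reads were recovered.

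Each file held 26220 rows. After 1837 rows with no name were removed and 544 repeated names were summed, 23704 names remained. Genes that share a row are joined in 1 name. Genes at 1 FPKM or more in at least 3 of the 6 samples (13031) were put on the log2(FPKM + 1/32) scale, which understates changes of low genes, and fitted with limma 3.58.1 in R 4.3.3 (empirical Bayes with a trend, Benjamini-Hochberg adjustment, adjusted p under 0.05). The fit was tested on simulated data. The p-values measure only the spread between the 3 samples of a group. Coordinates are from GENCODE vM21 on GRCm38 (mm10), and promoters are from RefSeq.

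The 62 gene lists, their key members and the comparison were chosen with earlier results of these data known. Genes named are the 12 largest rises and falls (called, no overlap, mean of at least 10 FPKM in the higher group), the 10 highest means of each group, key list members, the 8 genes with the largest SD in each group and promoter examples. Some genes that this rule selects are not reported here. Other members are named only as exceptions or as chosen after their values were seen. Lists got counts and a median and no test of their own. The 15 alternatives were other pseudocounts, filters, scalings, row choices and variance priors, a replicate block and leaving out each sample. Summed list levels were not tested, and 3 against 3 samples allow an exact two-sided permutation p of 0.1 at the least. The 6 files of injected mice were not used.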

Additional observations from a re-analysis of the deposited data

How the results depend on the processing

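The counts of 3758 genes higher and 4128 lower stayed within 1.5 times under all 15 alternatives. They were 3810 and 4201 with a pseudocount of 1, 3789 and 4168 with 1/4, 3989 and 4866 without the filter (18720 genes), 3216 and 2781 with at least 1 FPKM in all 6 samples (10675 genes), 3855 and 4090 after median-ratio scaling, 4348 and 3640 after quantile normalization, 3749 and 4122 with the highest row of a repeated name, and 3625 and 4063 without the trend. Leaving out 1 sample gave 3087 to 3683 higher and 3467 to 4175 lower genes. The replicate block gave 3439 higher and 3827 lower genes, and the samples share only a number: the correlations of deviations between same-numbered samples were -0.04, -0.10 and 0.01. Of 203 called named genes, 183 kept call and direction in every alternative, 20 lost the call in some and 0 reversed, while 45 moved by over 1.5-fold when 1 sample was left out and 31 moved so after quantile normalization. The filter at 1 FPKM in all 6 samples leaves out genes that fell to near 0, and with it the number of lower members moved by over 1.5 times in 18 of 62 lists. A list median changed sign under a scaling in 1 of the 62 lists, the H3K4 methyltransferases. List medians and fold changes of genes near 0 in a group depend on the pseudocount, and without read counts no limit of detection can be set for them.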
